A study of Marchantia polymorpha and Lactuca sativa with 27 samples.

Results

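The comparison described here set the Marchantia polymorpha mutant line labelled Mpwrky10 against the wild type Tak-1 in the libraries labelled no nitrate. Its members were chosen by genotype and medium as labelled, and they were 6 of the 27 libraries of the series, 3 of each genotype. Marchantia is a liverwort, and its gemmalings, the plantlets that grow out of asexual buds, spent 5 days in liquid medium with nitrate at 0 mM from an age of 7 days, per the labels. RNA came from whole plants, so fewer cells of a type and less RNA per cell cannot be told apart. The same pair of genotypes was also kept in full medium, with phosphate at 2 mM and nitrate at 10 mM, and in medium labelled no phosphate (0 mM), again with 3 libraries per group, and these 12 libraries show where the genotype difference depended on the medium and share in the estimate of the spread between replicates. All media are named as labelled, and wild-type levels of phosphate and ammonium transporter genes that bear on the labels no nitrate and no phosphate are given with the phosphate genes. The labels give neither the kind of mutation, nor whether the line is 1 clone, nor whether replicates came from separate cultures. The p-values therefore measure only the spread between these libraries, which may be technical.

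WRKY proteins are plant transcription factors that bind short DNA elements called W-boxes. In seed plants many of them act in defence against microbes, and in Arabidopsis several act in phosphate starvation, where they control phosphate transporters and phosphate release. Liverworts on poor medium are known to make phenolic pigments from phenylalanine. Phenylalanine ammonia-lyase (PAL) and cinnamate 4-hydroxylase (C4H) start that route, enzymes of the chalcone synthase family extend it, and polyphenol oxidases, peroxidases and dirigent proteins act on phenolic products.

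MpWRKY10 (Mp7g06550), the gene the line is named for, stood at 21.7, 22.0 and 26.9 CPM (counts relative to the library total, scaled between libraries) in the 3 wild-type libraries and at 37.6, 35.2 and 34.4 CPM in the 3 mutant libraries. Every mutant library was above every wild-type library. The difference was log2 0.60 (SE 0.117, adjusted p = 0.00138). Every adjusted p here and below is from the quasi-likelihood test of edgeR with the Benjamini-Hochberg method. The genotype difference was more positive than in full medium by log2 0.67 (adjusted p = 0.0424). It was also more positive than in the libraries labelled no phosphate, by log2 0.74 (adjusted p = 0.0197). The difference from full medium was not called without wild-type replicate 1 or 2 or mutant replicate 1 or 2 (adjusted p of 0.0757 to 0.114) or with RLE normalization (0.0505), and that from labelled no phosphate not without wild-type replicate 1 or 2 (0.0549 and 0.0507). A mutation can leave the transcript in place, so the level checks nothing about the genotype label.

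**Figure D1:**
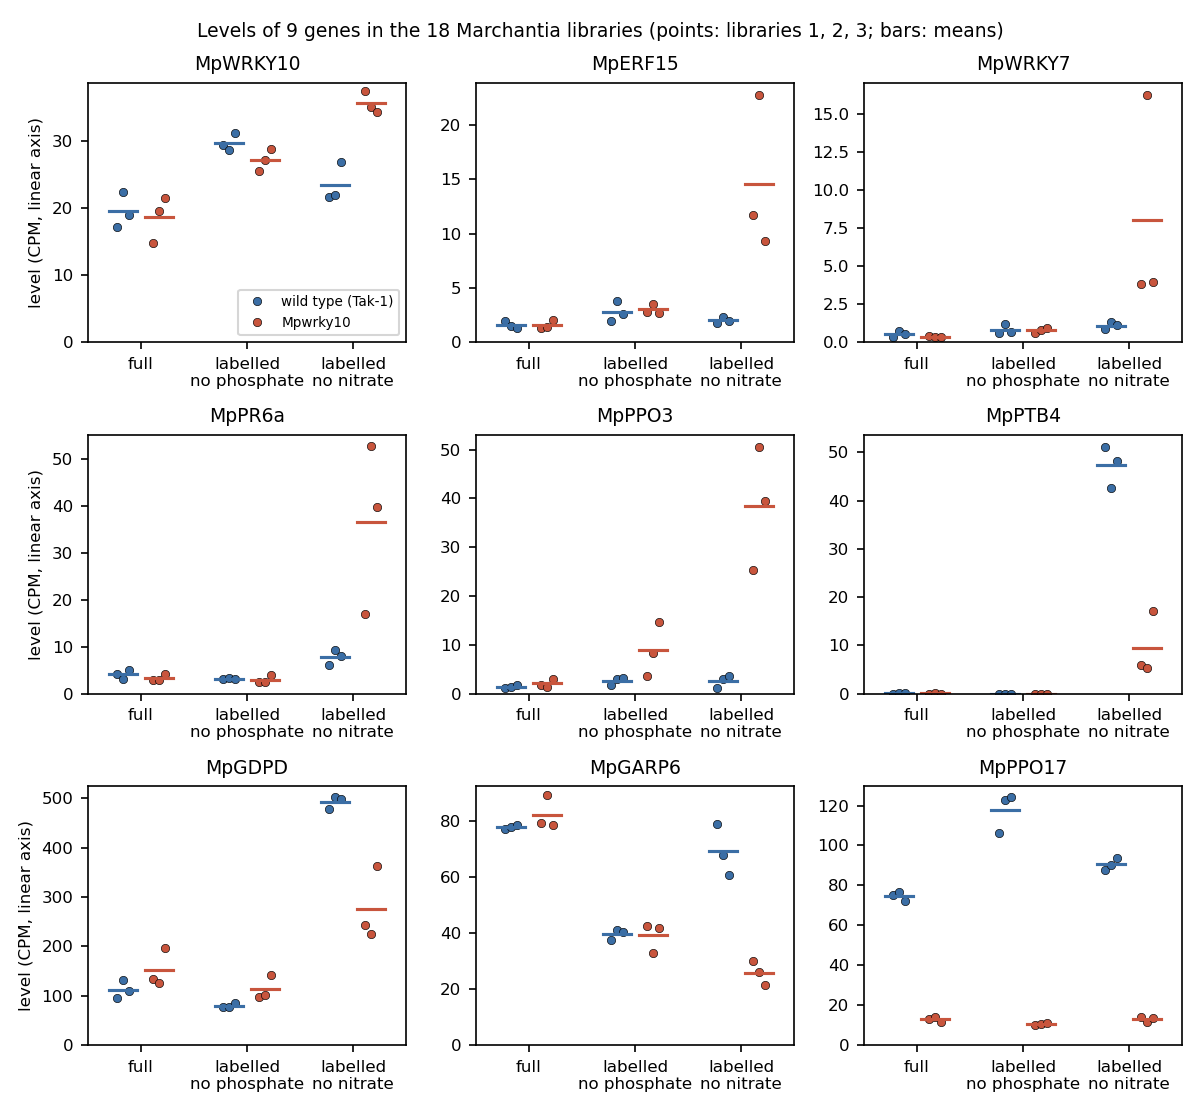
Levels of 9 genes in CPM on linear axes that start at 0, in the wild type and Mpwrky10, for full medium, labelled no phosphate and labelled no nitrate; points are the 3 libraries of a group in the order 1, 2, 3 and bars are their means. MpWRKY10, MpERF15, MpWRKY7 and MpPR6a separate the genotypes in the libraries labelled no nitrate, and MpPPO17 separates them in all 3 media.

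Depth was 18165419 to 22046395 counts in the 6 libraries, so 1 count was worth 0.0462 to 0.056 CPM. The first principal component of the 6 libraries held 59% of their variance and separated the genotypes, with the wild type at -29.0 to -31.2 and the mutant at 26.3 to 36.7. Mutant replicate 2 lay farthest out on it, at 36.7 against 26.3 and 26.9. On the second component (15%) wild-type replicate 1 lay at 24.1 against -17.8 and -8.55 for its partners. Several results are therefore given also without wild-type replicate 1 and mutant replicate 2. Markers of oil body cells, gemma cups and the sexual phase gave no called member (0 of 5, 0 of 3 and 0 of 3), and of 11 rhizoid markers 1 was higher and 1 lower. The summed level of the oil body markers was 80.5 to 85.4 CPM in the wild type and 72.2 to 76.7 CPM in the mutant. Tak-1 is a male line, and 49 to 57 genes of the male V chromosome had counts in each of the 6 libraries.

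Of 13016 genes tested, 1248 (9.59%) were higher and 1278 (9.82%) lower in the mutant at an adjusted p under 0.05, which was 19.4% in either direction. Counts of called members of a gene list are to be read against these shares throughout. A change of at least 2-fold was reached by 231 of the higher genes (1.77% of those tested) and 268 of the lower genes (2.06%). The median over all tested genes was log2 0.00965. The groups of 3 did not overlap in 36.6% of genes, with the mutant higher in 18.6% and lower in 18%. Without wild-type replicate 1 and mutant replicate 2 together, 572 genes were higher and 757 lower, 114 and 251 of them at least 2-fold. Of the 231 genes at least 2-fold higher, 172 (74.5%) had their highest value in mutant replicate 2, and 150 (64.9%) had their lowest wild-type value in replicate 1. Of the 268 lower genes, the lowest mutant value was in replicates 1, 2 and 3 for 111, 74 and 83.

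**Figure D2:**
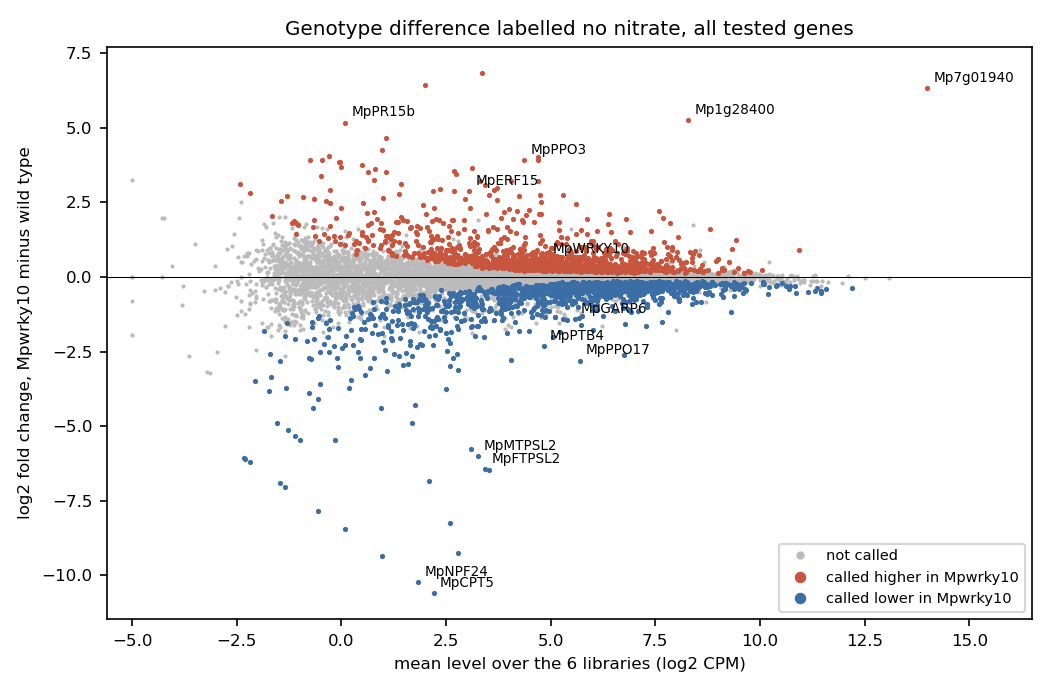
Log2 fold change of Mpwrky10 against the wild type (y axis) by mean level over the 6 libraries labelled no nitrate (x axis, log2 CPM), with 1 point per tested gene and colour for the 1248 genes called higher and 1278 called lower. The largest falls are deeper than the largest rises, and MpCPT5 and MpNPF24, with 0 counts in the mutant, lie at the bottom, where the plotted value depends on the small prior count of the fit.

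The genotypes were also compared in the other media. In full medium 552 genes differed between the genotypes (4.24%), with 2.07% of all genes higher and 2.17% lower. Labelled no phosphate, 860 did (6.61%), with 2.66% higher and 3.95% lower. Of the 1278 genes lower labelled no nitrate, 205 (16%) were also lower in full medium, which was 72.4% of the genes lower there, and 269 (21%) were also lower labelled no phosphate, which was 52.3% of the genes lower there. Of the 1248 higher genes 137 (11%) were also higher in full medium and 143 (11.5%) labelled no phosphate, which was 50.9% and 41.3% of the genes higher in those media. Lower in all 3 media were 139 genes, and higher in all 3 were 61. The genotype difference itself differed from that in full medium for 277 genes (2.13%, with 0.937% more positive and 1.19% more negative) and from that labelled no phosphate for 480 genes (3.69%, with 2.14% and 1.54%). Without wild-type replicate 1 and mutant replicate 2, 55 and 100 genes differed from full medium (from 122 and 155 more positive and more negative), and 76 and 40 from labelled no phosphate (from 279 and 201). With all libraries both tests passed, in the direction of the call, for 66 of the higher and 58 of the lower genes. Of the 15 largest rises with a name 0 were called in either other medium, and the test of the difference between media passed for 2 of them against each. Of the 15 largest falls 11 were called in full medium and 12 labelled no phosphate. Non-overlapping groups were a condition for being among these rises and falls, so their separation is not a further result. The list members named below were picked by small adjusted p, and other genes after their values were seen. Where their separation is given, it is not independent of that choice. Mutant replicate 2 was the highest library for 15 of the 15 rises.

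**Figure D3:**
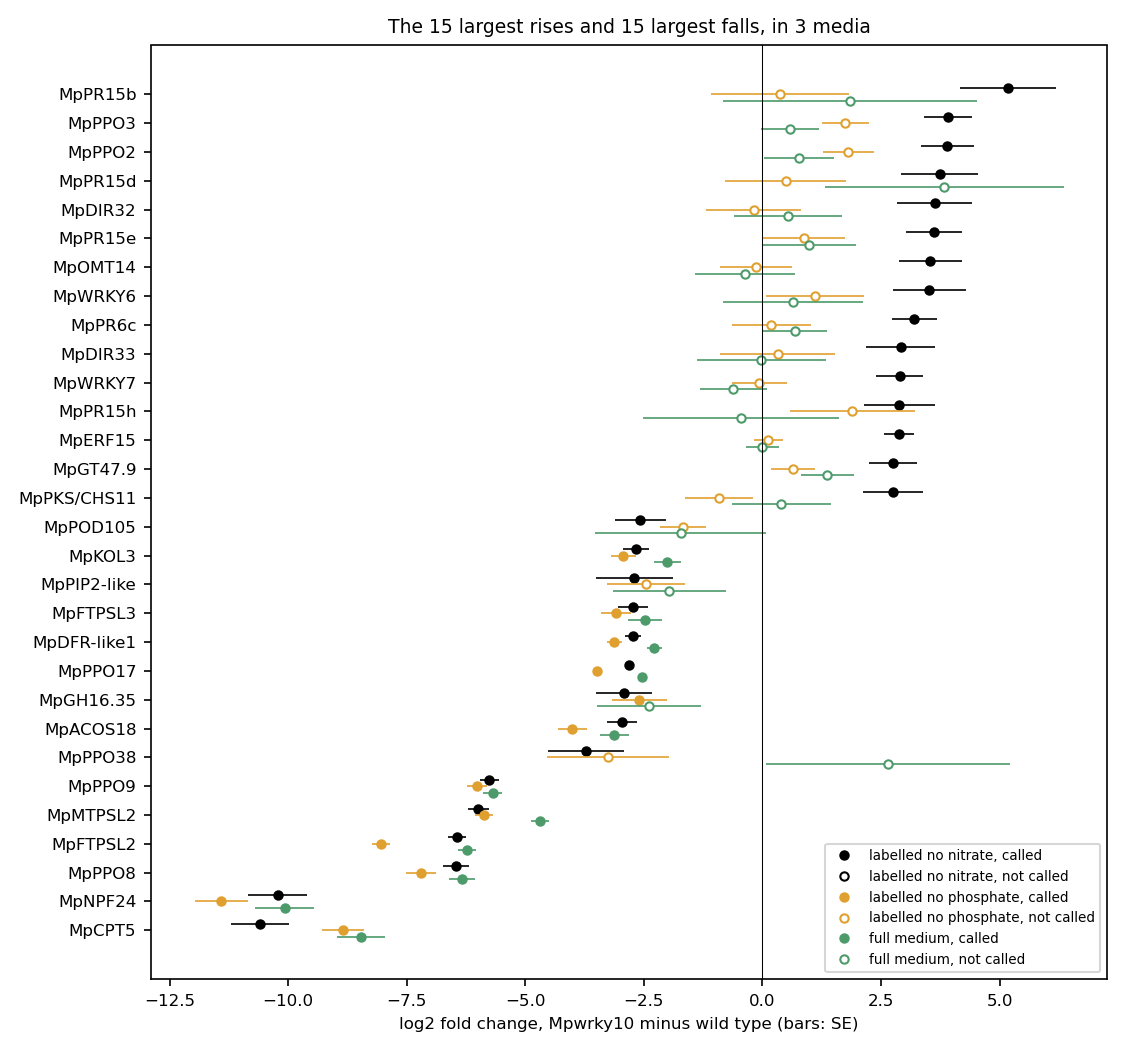
Log2 fold change of Mpwrky10 against the wild type with its SE for the 15 largest rises and 15 largest falls labelled no nitrate, each shown for 3 media; filled points were called and open points were not. The falls from MpACOS18 to MpCPT5 repeat in the other media for most genes, and none of the 15 rises was called outside the libraries labelled no nitrate.

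The falls that recurred in every medium included genes whose transcripts were close to absent in the mutant. MpCPT5 (Mp3g18510), a gene named for a cis-prenyltransferase, an enzyme that builds isoprenoid chains, stood at 8.97, 10.1 and 8.61 CPM in the wild type and had 0 counts in each mutant library, at least 180-fold lower against a floor of 3 counts over the group. MpNPF24 (Mp5g08940), of the family that carries nitrate and peptides, stood at 7.44, 6.11 and 7.91 CPM in the wild type and also had 0 counts in the mutant, at least 140-fold lower by the same floor. Both were called lower in the other media as well (adjusted p of 6.58e-09 and 2.96e-07 in full medium). In all, 5 genes with at least 1 CPM in the wild type had 0 counts in the 3 mutant libraries labelled no nitrate, and 0 genes showed the reverse. Not all 5 reached that level in the other media. Mp2g22430 stood at 3.93 ± 3.12 CPM (SD, n = 3) in the wild type labelled no nitrate. Its wild-type mean was 0.0903 CPM in full medium and 0.175 CPM labelled no phosphate.

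Several of these falls were in terpene genes. MpMTPSL2, a microbial-type terpene synthase gene whose locus number is next to that of MpCPT5, measured 18.9, 18.6 and 19.0 CPM in the wild type and 0.379, 0.292 and 0.203 CPM in the mutant (log2 -5.99, SE 0.222, adjusted p = 4.21e-13). MpFTPSL2, a fungal-type terpene synthase gene, fell from 20.9, 20.7 and 22.2 CPM to 0.216, 0.292 and 0.203 CPM (log2 -6.45, SE 0.187, adjusted p = 9.67e-15). Both genes fell by over log2 4 in the other media too. MpFTPSL3 fell by log2 -2.73, MpKOL3, named for ent-kaurene oxidase of diterpene synthesis, by -2.67, and MpDXS2, an enzyme gene at the entry of the plastid isoprenoid route, by -1.82, each called in the other media. Of 25 terpene synthase and prenyltransferase genes 1 was higher and 8 lower (median log2 -0.167), 0 and 4 of them in full medium and 0 and 7 labelled no phosphate.

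Polyphenol oxidases, which oxidise phenols to quinones, moved in both directions. Of 33 tested members 5 were higher and 17 lower, 4 and 12 of them at least 2-fold, with a median of log2 -0.79, and without mutant replicate 2 there were 11 lower. MpPPO17 (Mp5g15320) measured 87.9, 90.4 and 93.5 CPM in the wild type against 14.3, 11.3 and 13.3 CPM in the mutant (log2 -2.80, SE 0.0865, adjusted p = 2.21e-14). The neighbours MpPPO8 and MpPPO9 went from 20.2, 24.8 and 23.8 CPM to 0.108, 0.243 and 0.407 CPM and from 15.1, 18.3 and 17.2 CPM to 0.216, 0.390 and 0.305 CPM. These 3 genes were lower in every medium. MpPPO2 and MpPPO3, another neighbouring pair, went the other way. MpPPO3 measured 1.06, 3.02 and 3.69 CPM in the wild type and 25.4, 50.6 and 39.6 CPM in the mutant (log2 3.92, SE 0.505, adjusted p = 0.000158). MpPPO2 measured 1.20, 3.98 and 4.65 CPM against 37.5, 57.2 and 50.0 CPM (log2 3.90, adjusted p = 0.00043). The groups of both genes did not overlap, which was a condition for naming them. Their differences in the other media were not called (adjusted p of 0.0531 and 0.0649 labelled no phosphate), and neither was the difference between media (adjusted p of 0.0513 to 0.153). MpPPO55, outside the naming rule and chosen after its values were seen, was lower by log2 -0.97 labelled no nitrate and higher by 0.82 in full medium (adjusted p of 0.00128 and 0.0161), and the difference between these media was log2 -1.79 (adjusted p = 0.00248).

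Class III peroxidases, secreted enzymes that couple phenolics in the wall, gave 10 higher and 34 lower genes among 109 tested, with a median of log2 -0.951. In full medium 4 were higher and 7 lower (median log2 -0.589), and labelled no phosphate 5 and 21 (median log2 -0.985). Labelled no nitrate, 13 to 16 were lower without any 1 library other than wild-type replicate 1. Without wild-type replicate 1 and mutant replicate 2 together 6 were higher and 21 lower. The summed level of the family, in contrast, was 2570, 3500 and 3270 CPM in the wild type and 3060, 4310 and 3550 CPM in the mutant, with overlapping groups. MpPOD2 went from 16.7, 15.2 and 15.3 CPM to 4.54, 5.31 and 7.12 CPM (log2 -1.48, SE 0.185, adjusted p = 2.44e-05). MpPOD105 went from 8.04, 16.2 and 10.6 CPM to 2.00, 2.19 and 1.63 CPM (log2 -2.58, adjusted p = 0.00445). MpPOD148 rose from 82.6, 87.3 and 97.9 CPM to 164, 165 and 154 CPM (log2 0.85, SE 0.0759, adjusted p = 3.37e-07), and MpPOD143 rose by log2 1.23 (adjusted p = 7.9e-07). The groups of MpPOD2, MpPOD143 and MpPOD148 did not overlap, and for MpPOD105 this was a condition for naming it. The 5 neighbours MpPOD107 to MpPOD111 were all lower; the call of MpPOD107 was lost without either of wild-type replicates 2 and 3 or of mutant replicates 1 and 3 (adjusted p of 0.0647 to 0.11), and that of MpPOD111 without any 1 library other than wild-type replicate 1 (0.0515 to 0.116). The strand and multiple-match settings of the counting are not given, so values of single members of such families are uncertain to that extent.

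Several transcription factor genes were higher. Of 13 WRKY genes 9 were higher and 0 lower (median log2 0.439), whereas 0 were called in full medium or labelled no phosphate, and the difference between media was called as higher for 4 and 3 of them. MpWRKY10 itself is counted in the 13, in the 9 and in both counts between media. MpWRKY7 measured 0.832, 1.29 and 1.12 CPM in the wild type and 3.84, 16.2 and 3.92 CPM in the mutant (log2 2.89, SE 0.491, adjusted p = 0.000608). MpWRKY6 measured 0.185, 0.336 and 0.481 CPM against 2.22, 8.03 and 1.22 CPM (log2 3.52, SE 0.762, adjusted p = 0.00404). In both genes mutant replicate 2 was at least 3-fold above its partners. MpWRKY1 rose from 64.1, 69.3 and 64.7 CPM to 82.9, 104 and 82.0 CPM (log2 0.44, adjusted p = 0.00115). Without wild-type replicate 1 and mutant replicate 2, 3 WRKY genes were called higher and the median was log2 0.418; MpWRKY6 was then not called (log2 2.05, adjusted p = 0.0836). With the spread of the 6 libraries alone MpWRKY7 was not called (adjusted p = 0.0599).

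MpERF15, of the ethylene response factor family, had the smallest adjusted p among the 15 largest rises. It measured 1.71, 2.3 and 1.98 CPM in the wild type and 11.7, 22.8 and 9.31 CPM in the mutant (log2 2.88, SE 0.31, adjusted p = 4.58e-06). In full medium the wild-type libraries measured 1.92, 1.49 and 1.34 CPM and the mutant libraries 1.31, 1.36 and 2.01 CPM, with overlapping groups. The genotype difference exceeded that in full medium by log2 2.88 (adjusted p = 0.00397) and that labelled no phosphate by 2.75 (adjusted p = 0.00263). Of 20 ERF and AP2 genes 3 were higher and 1 lower, where 19.4% of all tested genes were called. MpBHLH10, of the basic helix-loop-helix family, rose by log2 0.79 from 57.2 ± 3.73 to 98.6 ± 16.3 CPM (SD, n = 3, adjusted p = 2.57e-05).

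Pathogenesis-related (PR) genes, a set of families named for their induction by infection in seed plants, gave 9 higher and 3 lower members among 16 tested, with a median of log2 2.04, against -0.25 in full medium and -0.097 labelled no phosphate. All 9 were at least 2-fold higher. The filter on low counts kept 16 of 49 PR genes, and a gene can pass it through 1 group alone. With no filter, 37 members gave 11 higher and 3 lower with a median of log2 1.28, and with DESeq2 the median was 0.991. The difference between media was called as higher for 2 members against each other medium. MpPR6a, of the proteinase inhibitor family, measured 6.01, 9.30 and 8.02 CPM in the wild type and 16.9, 52.8 and 39.8 CPM in the mutant (log2 2.24, SE 0.331, adjusted p = 0.000343). MpPR6c measured 1.16, 3.25 and 5.34 CPM against 15.3, 40.9 and 32.9 CPM (log2 3.21, adjusted p = 0.000361). The groups of MpPR6a did not overlap, and for both genes replicate 1 was the lowest library within each genotype. MpPR15b, of the germin-like PR15 family and the largest rise of a called and named gene that averaged 1 CPM or more and whose groups did not overlap, had 3 counts in the wild type and 124 in the mutant, a ratio of 41.0 scaled for depth (13.7 to 201.0, 95% interval for counting error only). Mutant replicate 2 held 89 of those 124 counts, against 24 and 11 in replicates 1 and 3. Its neighbours MpPR15c, MpPR15d and MpPR15e rose by log2 3.91, 3.74 and 3.62, from levels under 1 CPM. Mutant replicate 2 also led in MpPR15d (32, 98 and 26 counts) and MpPR15e (36, 131 and 26 counts). Without wild-type replicate 1 and mutant replicate 2, MpPR15d was not called (log2 2.45, adjusted p = 0.0738). Of the members that went down, MpPR1m fell by log2 -1.59 (adjusted p = 0.000343) and was lower in every medium. The summed level of the PR genes was 275, 538 and 477 CPM in the wild type and 515, 1100 and 810 CPM in the mutant, so mutant replicate 1 lay below wild-type replicate 2. Without wild-type replicate 1 and mutant replicate 2, 7 were higher and 3 lower.

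Genes of the early phenolic route were called in both directions. Of 18 genes from PAL to lignin-type methyltransferases 5 were higher and 4 lower (median log2 0.175). MpC4H1 rose from 292, 501 and 438 CPM to 759, 1387 and 777 CPM (log2 1.25, SE 0.216, adjusted p = 0.00146), without overlap. MpPAL10 rose from 89.3, 95.9 and 106 CPM to 143, 150 and 145 CPM (log2 0.59, adjusted p = 1.56e-05). MpHCT, a hydroxycinnamoyl transferase gene, fell by log2 -0.50 (adjusted p = 0.000297). Its genotype difference was more negative than in full medium by log2 -0.60 (adjusted p = 0.0096). Of 21 chalcone synthase family genes 8 were higher and 1 lower (median log2 0.384), and 0 were called in either other medium. The difference between media itself was called for 0 of them against full medium and for 1 against labelled no phosphate. A stretch of neighbours on chromosome 4, MpPAL7, MpPKS/CHS11, MpPAL6 and MpPKS/CHS12, was higher throughout. Without mutant replicate 2 the calls of MpPAL7 and MpPAL6 were lost (log2 1.05 and 0.54, adjusted p of 0.082 and 0.388), and they were also lost without wild-type replicate 1 (adjusted p of 0.0741 and 0.14) or 3 (0.0657 and 0.0776), and for MpPAL6 without wild-type replicate 2 (0.101). MpPKS/CHS11 measured 3.98, 9.97 and 6.84 CPM in the wild type and 17.5, 106 and 15.9 CPM in the mutant (log2 2.76, SE 0.633, adjusted p = 0.00892). Mutant replicate 2 alone lay at least 6-fold above its partners. The summed level of the chalcone synthase family likewise was 1230, 2510 and 1310 CPM in the mutant against 898, 1340 and 1200 CPM in the wild type, and the groups overlapped. When the spread was estimated from the 6 libraries alone, 1 chalcone synthase gene was higher and 0 lower, and the adjusted p of MpPKS/CHS11 was 0.163 and that of MpC4H1 0.0909. Without mutant replicate 2 alone 5 chalcone synthase genes and 3 early enzymes were higher. Without wild-type replicate 1 and mutant replicate 2, 4 chalcone synthase genes were higher and 1 lower, and the median fell to log2 0.0952; for the early enzymes the counts were 2 and 3 and the median was -0.0234.

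Dirigent proteins, which steer the coupling of phenolics, gave 13 higher and 4 lower members among 38 (median log2 0.437), 8 and 3 without mutant replicate 2, and 6 and 3 without wild-type replicate 1 as well. MpDIR32 measured 0.878, 1.34 and 1.71 CPM in the wild type and 4.82, 39.1 and 4.58 CPM in the mutant (log2 3.64, adjusted p = 0.00608, or 0.136 with the spread of the 6 libraries alone). MpDIR28 was lower with close replicates, at 46.8, 46.8 and 46.5 CPM against 25.4, 27.7 and 24.1 CPM (log2 -0.86, SE 0.116, adjusted p = 5.2e-05), and in the other media too. Glutathione transferases gave 8 higher and 1 lower of 32, and 3 higher without both libraries. Lipoxygenases and genes of jasmonate-type oxylipin signalling gave 5 higher and 2 lower of 13, with MpLOX2 up from 234, 276 and 273 CPM to 396, 442 and 377 CPM (log2 0.63, adjusted p = 3.65e-05). MpLOX16, at 1.48, 1.12 and 0.588 CPM in the wild type and 4.71, 3.99 and 4.17 CPM in the mutant, was higher in every medium (log2 1.99 labelled no nitrate, adjusted p = 0.000599).

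**Figure D4:**
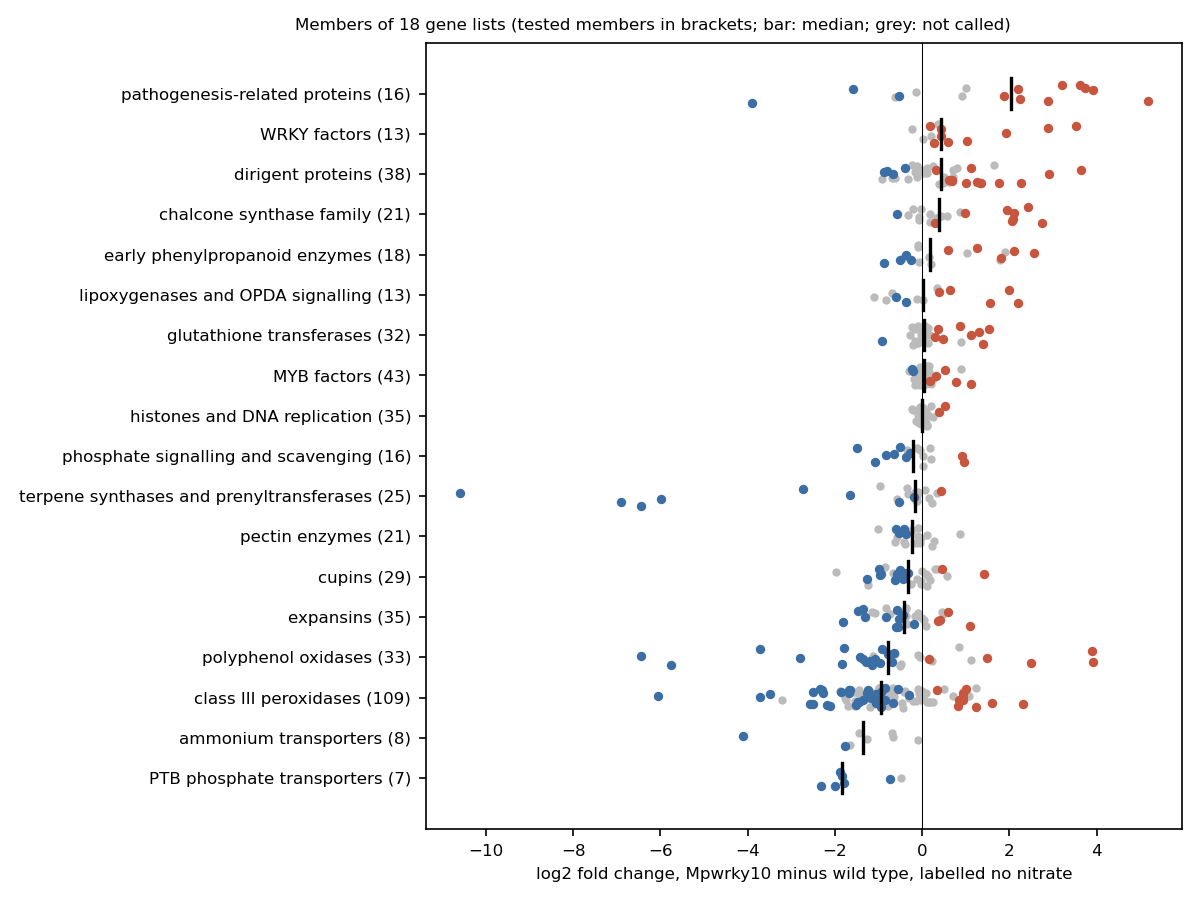
Log2 fold change of the tested members of 18 gene lists in the libraries labelled no nitrate, with 1 point per gene (red called higher, blue called lower, grey not called) and a bar at the list's median. PR genes have a median of 2.04 with members on both sides, and PTB phosphate transporter genes have a median of -1.84 with none above 0.

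Genes of phosphate uptake were lower in the mutant. PTB genes encode transporters of the plasma membrane that take up phosphate with sodium. Of 7 tested members 0 were higher and 6 lower (median log2 -1.84), and 0 were called in the other media. MpPTB4 measured 51.2, 42.7 and 48.3 CPM in the wild type and 5.95, 5.31 and 17.1 CPM in the mutant (log2 -2.33, SE 0.402, adjusted p = 0.00355). Its locus neighbours MpPTB2, MpPTB3, MpPTB1 and MpPTB5 fell by log2 -1.79, -1.89, -1.84 and -1.99, and none of these 5 genes had overlapping groups. MpPTB8 stood at 261, 343 and 408 CPM against 188, 148 and 267 CPM (log2 -0.74, adjusted p = 0.0385), and its groups overlapped. In wild-type libraries MpPTB4 stood at 47.4 ± 4.31 CPM labelled no nitrate, 0.0564 CPM in full medium and 0 CPM labelled no phosphate. The difference between media could not be resolved at so low a level (adjusted p of 0.873 and 1). The ammonium transporter gene MpAMT2.3 stood the other way in wild-type libraries, at 7.88 ± 1.95 CPM labelled no nitrate and 27.0 ± 10.7 CPM labelled no phosphate (SD, n = 3). Whether the 2 labels were exchanged was not tested, and every medium-specific value here holds for the media as labelled. Without mutant replicate 2, 3 PTB genes were lower and 0 higher, and without wild-type replicate 1 as well 4 were lower. The call of MpPTB1 was lost without any 1 library other than wild-type replicate 1 (adjusted p of 0.0533 to 0.145), that of MpPTB8 without either of wild-type replicates 2 and 3 or of mutant replicates 1 and 2 (0.0934 to 0.146), and that of MpPTB2 without mutant replicate 2 (adjusted p = 0.0638).

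**Figure D5:**
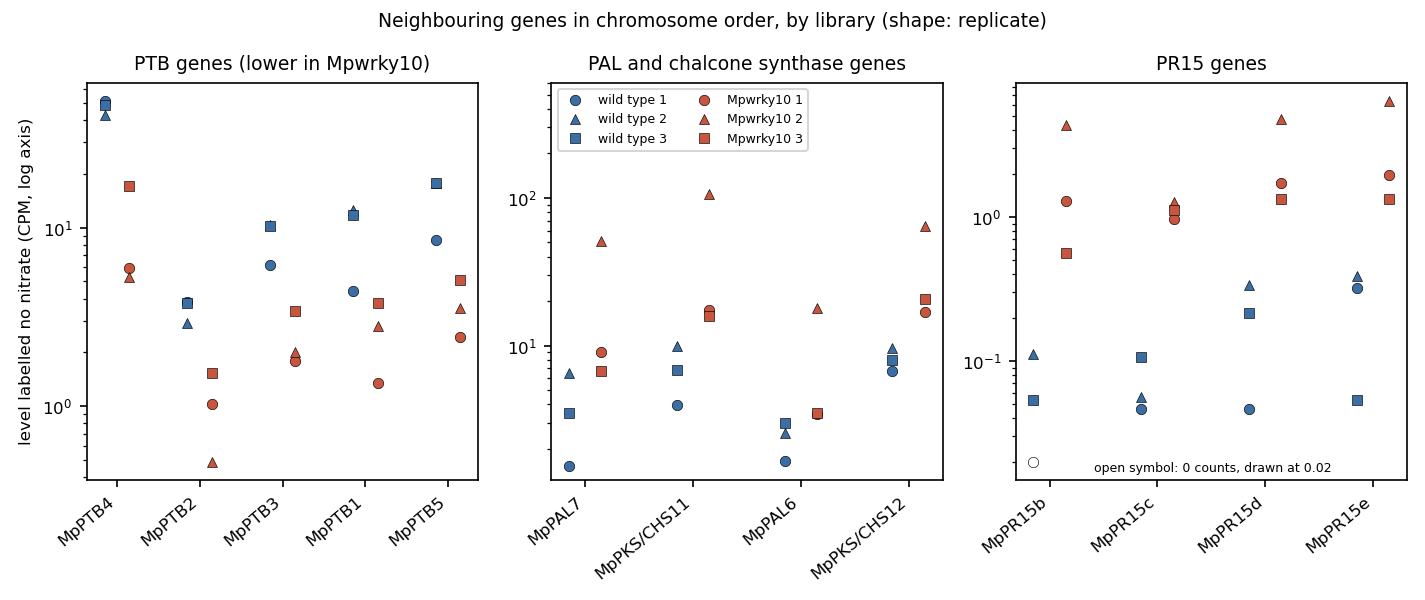
Levels in CPM on log axes of neighbouring genes in chromosome order in the 6 libraries labelled no nitrate, with colour for genotype and shape for replicate. The 5 PTB genes lie lower in Mpwrky10, while the PAL, chalcone synthase and PR15 genes lie higher, with mutant replicate 2 on top in each of those 8 genes.

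Other genes of phosphate signalling and scavenging gave 2 higher and 7 lower of 16 (median log2 -0.204), and 1 and 3 without both libraries. MpGDPD, named for glycerophosphodiester phosphodiesterase, which acts on membrane breakdown products, lay outside the naming rule and was chosen after its values were seen. It measured 478, 504 and 498 CPM in the wild type and 243, 225 and 363 CPM in the mutant (log2 -0.83, SE 0.208, adjusted p = 0.0132). MpSPX, named for the SPX domain that senses inositol pyrophosphates, measured 127, 150 and 126 CPM against 96.1, 113 and 104 CPM (log2 -0.36, adjusted p = 0.00278). MpSQD, of sulfolipid synthesis, measured 110, 155 and 146 CPM against 94.7, 98.3 and 97.5 CPM (log2 -0.50, adjusted p = 0.00127). The groups of these 3 genes did not overlap. For MpGDPD and MpSPX the difference was more negative than in full medium (by log2 -1.28 and -0.56, adjusted p of 0.0424 and 0.0113) and than labelled no phosphate (by -1.34 and -0.47, adjusted p of 0.0297 and 0.0226). Without mutant replicate 2 the call of MpGDPD was lost (log2 -0.70, adjusted p = 0.0655), and 3 genes of the list were lower. The differences of MpGDPD between media were not called without any 1 library other than mutant replicate 3 (adjusted p of 0.0539 to 0.112), and that of MpSPX from labelled no phosphate not without wild-type replicate 2 (0.0627). MpPLD1, a phospholipase D gene, rose by log2 0.92 (adjusted p = 0.000566).

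Ammonium and nitrate transporter genes are read against the 19.4% of all genes called. Of 8 ammonium transporter genes 0 were higher and 2 lower (5 lower without wild-type replicate 1, and 1 lower without wild-type replicate 2, mutant replicate 1 or mutant replicate 3), with MpAMT2.3 at 7.49, 6.16 and 9.99 CPM in the wild type and 2.60, 1.70 and 2.65 CPM in the mutant (log2 -1.77, adjusted p = 0.00519, or 0.0629 without wild-type replicate 1 and mutant replicate 2). That gene was lower labelled no phosphate as well (log2 -2.18, adjusted p = 0.00111), where its wild-type level was 27.0 CPM. Of 21 NPF genes 1 was higher and 3 lower. MpNPF9, the last of 8 neighbouring genes on chromosome 3 that were all lower, measured 13.7, 9.41 and 8.66 CPM against 4.87, 2.53 and 2.04 CPM (log2 -1.76, adjusted p = 0.00173). All 8 genes of that stretch, which includes the immune receptor gene MpNBS-LRR6, were lower in full medium and labelled no phosphate too.

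Wall and water transport genes were called in both directions. Of 35 expansins, which loosen walls, 4 were higher and 11 lower (median log2 -0.403), and 4 and 6 without mutant replicate 2; 6 or 7 were lower without wild-type replicate 2 or 3 or mutant replicate 3. MpExpansin34 measured 14.2, 9.30 and 8.28 CPM against 4.38, 3.99 and 3.10 CPM (log2 -1.48, adjusted p = 3.27e-05). MpExpansin14 rose from 25.7, 26.3 and 26.5 CPM to 61.6, 64.0 and 43.6 CPM (log2 1.11, adjusted p = 9.08e-05). Pectin enzymes gave 0 higher and 5 lower of 21, where 9.82% of all tested genes were lower, and 1 lower without wild-type replicate 1 and mutant replicate 2. MpPIP2, a plasma membrane aquaporin gene, measured 3389, 3265 and 3191 CPM in the wild type and 2497, 2164 and 2492 CPM in the mutant (log2 -0.46, SE 0.0895, adjusted p = 0.00145). MpNIP, of the nodulin 26-like aquaporins, rose from 20.4, 21.4 and 24.6 CPM to 32.7, 36.3 and 35.2 CPM (log2 0.65, adjusted p = 7.14e-05). Among 35 histone and replication genes 2 were higher and 0 lower, and of 5 chlorophyll and photosynthesis genes 1 was lower, where 19.4% of all tested genes were called.

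Some genes differed by genotype in the libraries labelled no nitrate and by both tests against the other media. Of those outside the naming rule, MpPPO55 and MpGDPD are given above and 3 more here, all chosen after their values were seen. MpGARP6, of the GARP family of transcription factors, measured 78.9, 67.9 and 60.8 CPM in the wild type and 29.9, 26.2 and 21.4 CPM in the mutant (log2 -1.43, SE 0.117, adjusted p = 2.45e-07). Its genotype difference was log2 0.08 in full medium and -0.02 labelled no phosphate, and the differences between media were log2 -1.51 and -1.40 (adjusted p of 0.000412 and 0.000308). MpSAUR3, of a family of small auxin-responsive genes, measured 120, 110 and 93.2 CPM against 47.8, 38.5 and 44.6 CPM (log2 -1.31, adjusted p = 1.07e-05). Without wild-type replicate 1 and mutant replicate 2, neither of its differences between media was called (adjusted p of 0.0664 and 0.0856). MpLRE1 measured 109, 111 and 114 CPM against 71.9, 67.7 and 78.8 CPM (log2 -0.61, adjusted p = 2.87e-06). All 3 genes had every mutant library below the wild type, as did 18% of all tested genes, and their choice made this likely.

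Mp7g01940, a gene without a name in the table used, measured 406, 392 and 418 CPM in the wild type and 35230, 33010 and 28890 CPM in the mutant (log2 6.32, SE 0.0993, adjusted p = 3.26e-19), and it took 3.17% of the mutant counts against 0.0398% in the wild type. The rise was log2 5.92 in full medium and 6.51 labelled no phosphate. Mp1g28400, also unnamed, went from 16.2, 15.6 and 15.9 CPM to 624, 658 and 538 CPM (log2 5.25, adjusted p = 8.07e-16) and was the fourth of 6 neighbours that were all higher. Of those 6, 3 were higher in full medium and 4 labelled no phosphate. In total 17 stretches of at least 4 neighbouring tested genes were called in 1 direction, 11 higher and 6 lower, and they held 82 genes.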

How the data were processed

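Directional poly(A) libraries were sequenced, per the labels' protocols. STAR 2.7 and DESeq2 stand in the submitters' processing notes without a role; the counting program, its strand setting and the genome build are not given in the sources used here. The deposited values were whole-number counts per gene, not normalized by the authors as far as the values show. Genes were tested with edgeR 4.0.16 (R 4.3.3) in 1 model of the 18 Marchantia libraries, with filterByExpr, TMM factors of 0.972 to 1.06 and the robust quasi-likelihood test (two-sided). Every adjusted p is Benjamini-Hochberg adjusted over the 13016 genes tested of 19355, and a gene with an adjusted p under 0.05 is called. Genotype differences between media are contrasts of the same model. CPM levels use library sizes scaled by TMM. SE is that implied by the log2 fold change and F.

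Names came from a table of the assembly MpTak2_v7.1, of whose 18391 entries 17384 matched, which assumes the same locus numbering; 2441 tested genes had a name. The members, the 46 gene lists and the rules were chosen with earlier results of these data known. Named genes were MpWRKY10, the 15 largest rises and falls among called, named genes with a mean of at least 1 CPM and no overlap, and up to 4 members of each list by adjusted p. Other genes in the text, such as cluster neighbours, were chosen after their values were seen. Replicate pairs differed by more than sampling noise (chi-square of 3.55 to 21.2 per degree of freedom), so each library counted as 1 sample. Intervals and floors cover counting error only. Alternatives were DESeq2 1.42.0, RLE normalization, no filter, the 6 libraries alone, a replicate block and each library left out.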

Additional observations from a re-analysis of the deposited data

Results flagged for a closer look

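The results below stand out because the genotype difference itself differed between media by the interaction test of the edgeR model (Benjamini-Hochberg adjusted p under 0.05 over all genes tested). Values are log2 differences labelled no nitrate minus those in the other medium.

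Against both other media, first full medium and then labelled no phosphate, the difference was more positive for MpWRKY10 (0.667 and 0.738), MpWRKY7 (3.51 and 2.95) and MpWRKY1 (0.635 and 0.454). The same held for MpERF15 (2.88 and 2.75) and MpBHLH10 (0.73 and 0.785), and for MpPR6a (2.53 and 2.34), MpPOD143 (0.719 and 0.639) and MpNIP (0.542 and 0.694). It was more negative in both for MpGARP6 (-1.51 and -1.40), MpSAUR3 (-1.01 and -0.97) and MpLRE1 (-0.465 and -0.637). Metabolic and phosphate genes with the same pattern were MpPPO55 (-1.79 and -1.42), MpHCT (-0.605 and -0.534), MpGDPD (-1.28 and -1.34) and MpSPX (-0.558 and -0.474).

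Against full medium only, MpExpansin14 passed, at 1.02. Against the libraries labelled no phosphate only, MpC4H1 (1.36), MpPAL10 (0.777), MpPKS/CHS12 (2.54), MpLOX2 (0.588), MpPLD1 (0.855) and MpPOD148 (0.548) were more positive and MpSQD (-0.498) more negative. MpPPO17 stood at 0.685 there, since its fall was deeper in the libraries labelled no phosphate.

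Leaving out 1 library ended some of these calls. Against full medium, MpWRKY7 was not called without any 1 wild-type library (adjusted p of 0.0746 to 0.0877), MpGDPD without any 1 library other than mutant replicate 3 (0.0725 to 0.112) and MpWRKY10 without replicate 1 or 2 of either genotype (0.0757 to 0.114). MpNIP was lost without wild-type replicate 1 or 2 or mutant replicate 2 or 3 (0.0542 to 0.0938), MpPOD143 without wild-type replicate 1 or 2 or mutant replicate 3 (0.0544 to 0.0735) and MpExpansin14 without mutant replicate 2 (0.0525).

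Against the libraries labelled no phosphate, MpWRKY7 was not called without any 1 wild-type library or mutant replicate 2 (0.0594 to 0.112), MpPKS/CHS12 without any 1 wild-type library (0.067 to 0.112) and MpPLD1 without any 1 wild-type library or mutant replicate 2 (0.058 to 0.119). MpGDPD was lost without any 1 library other than mutant replicate 3 (0.0539 to 0.0738), MpSQD without any 1 library other than wild-type replicate 1 (0.0563 to 0.106) and MpPOD143 without wild-type replicate 1 or 2 or mutant replicate 2 or 3 (0.061 to 0.102). MpWRKY1 was lost without wild-type replicate 1 or 3 or mutant replicate 2 (0.0781 to 0.0983) and MpWRKY10 without wild-type replicate 1 or 2 (0.0549 and 0.0507). The last were MpC4H1 without wild-type replicate 1 or 3 (0.0539 and 0.0507), MpPR6a without wild-type replicate 1 (0.0663) and MpSPX without wild-type replicate 2 (0.0627). With no filter on low counts MpWRKY7 (0.0545 against both media), MpGDPD (0.0603 against full medium) and MpPKS/CHS12 (0.0613) were not called. Without wild-type replicate 1 and mutant replicate 2 together, 20 of the 39 differences were called. Further losses then were MpSAUR3 against both media (0.0664 and 0.0856). Against labelled no phosphate they were MpHCT (0.0908), MpLOX2 (0.0681), MpPOD148 (0.0583) and MpNIP (0.0538).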

How the results depend on the processing

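Of the 2526 calls, none changed sign where tested under the 13 alternatives. All of these reused the same libraries, so a change of sign among genes already called was unlikely. Genes higher and lower numbered 1119 and 1406 with RLE normalization, so the higher share of calls went from 49.4% to 44.3%, and 1164 and 1525 with DESeq2. With each library left out in turn they numbered 779 to 1139 and 856 to 1116, the lowest without mutant replicate 2. Without wild-type replicate 1 and mutant replicate 2 together, an alternative chosen after seeing the data, they were 572 and 757, which kept 42.7% and 51.9% of the calls; 114 genes were at least 2-fold higher, against 145 with the 6 libraries alone. These settings hold fewer libraries, and no other cause was tested. Genotype differences that depended on the medium varied more. Against full medium, DESeq2 gave 213 higher and 350 lower, the replicate block 233 lower, leaving out each library 63 to 152 and 85 to 179, and leaving out both 55 and 100. Against the libraries labelled no phosphate, the values were 466 and 410 with DESeq2, 373 lower with the block, 120 to 418 and 79 to 309 with each library left out, and 76 and 40 with both left out. Of 39 such differences of genes in the text, 22 were called without each of the 6 libraries in turn. Without wild-type replicate 1 and mutant replicate 2 together 20 were called.

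Replicate numbers were not treated as pairs, since deviations of same-numbered libraries correlated at 0.222, 0.209 and 0.0589, although each library correlated best with its own number, which is a hint from the data only. With the replicate number as a block, 1298 genes were higher and 1383 lower. Depth limits genes near 1 count, worth up to 0.056 CPM.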
